A study of Mus musculus with 3 samples.

Results

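Isolated binding sites of the NUP98-HOXD13 fusion inside protein-coding genes are described here. A member was a peak whose summit lay within the span of a RefSeq protein-coding gene and that was either a DMSO peak with no other DMSO summit within 50 kb, or a VTP50469 peak that touched no DMSO peak by as much as 1 bp. These rules gave 220 peaks of the 1013 on chromosomes 1 to 19, X and Y, of which 181 came from the 613 DMSO peaks and 39 from the 400 VTP50469 peaks. They lay in 222 genes, or 1.01% of the 21887 protein-coding genes. The rule asked for isolation of the DMSO peaks alone, and of the 39 VTP50469 peaks 32 had neither a DMSO nor another VTP50469 summit within 50 kb, while 7 had a DMSO summit that near.

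The cells were a mouse leukaemia line named for the fusion it carries, grown with IL-3, IL-6 and SCF and given DMSO (the solvent control) or 2 µM VTP50469 for 96 h. VTP50469 is a small molecule that keeps menin from docking onto MLL. Both groups carried the same biotinylated fusion, which was pulled down with streptavidin beads, and each group was 1 library. The labels also list a DMSO input, which was not used here. With 1 library per treatment no test across samples could be made, so every difference below is between 2 libraries, and intervals cover counting error only.

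NUP98-HOXD13 joins the repeat-rich part of a nuclear pore protein to the DNA-binding homeodomain of HOXD13 and keeps blood progenitors in a self-renewing state. Menin is the adaptor that holds the histone methyltransferase MLL on chromatin at genes of that state. Sites inside gene bodies can lie in introns that hold enhancers or at alternative starts. The gene table gives spans and no exons, so exon, intron and UTR could not be assigned.

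Few of these sites lay at an annotated gene start, which the rule partly fixes. The summit of a member lies inside a span, so most peaks centred before a start were left out. A start was given for 181 of the 220 members. RefSeq windows of 300 bp around starts held 250 bp before the start and the rest after (GRCm38.p6, which shares its primary assembly with the authors' mm10). They were touched by 2 of the 220 peaks, against 14 of all 613 DMSO peaks and 6 of 176 isolated DMSO peaks between genes. The upstream 250 bases of both windows are shown because they hold the peak sequence that could be read, 177 of the 250 bases for Kif27 and 222 for Wfdc17, after 73 and 28 bases that lie outside the peak. Capitals mark matches to any of the 8 short motifs searched on both strands. These were AATAAA (a posterior HOX core), TTTACGAG and TTTATTAG (HOXD13-like, the latter holding the reverse of AATAAA), TGATTTAT (PBX-HOX), TGACAG (MEIS), TGTGGT (RUNX), GGAAGTG (ETS) and CACGTG (E-box).
Kif27, chr13:58354948-58355197, minus strand: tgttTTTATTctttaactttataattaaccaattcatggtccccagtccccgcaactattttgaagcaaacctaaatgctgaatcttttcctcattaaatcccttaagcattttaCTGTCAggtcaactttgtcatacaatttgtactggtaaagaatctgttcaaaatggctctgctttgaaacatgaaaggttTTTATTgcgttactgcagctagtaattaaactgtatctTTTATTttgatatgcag
Wfdc17, chr11:83703806-83704055, plus strand: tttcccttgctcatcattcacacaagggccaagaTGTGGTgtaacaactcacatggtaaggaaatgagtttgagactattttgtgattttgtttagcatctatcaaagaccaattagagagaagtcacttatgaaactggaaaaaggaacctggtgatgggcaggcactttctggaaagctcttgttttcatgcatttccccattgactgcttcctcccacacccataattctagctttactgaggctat

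The Kif27 window, at a start that lies inside the span of this kinesin gene, held 3 matches to AATAAA and 1 to TGACAG, with 2 and 1 of these inside the peak, in a sequence of 32.8% G and C. Such matches occurred in 18.1% and 15.9% of all 32851 upstream windows, whose median G and C content was 52.4%. The Kif27 peak was DMSO-alone, with a fold enrichment of 4.85 over the background of the authors' peak caller, and its summit lay 45 bp upstream of that start. The Wfdc17 window held 1 match to TGTGGT, as did 14.0% of all windows. The Wfdc17 peak was in both lists, with folds of 8.90 with DMSO and 9.88 with VTP50469, and its DMSO summit lay on the annotated start. A match describes letters and not a site of binding.

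Of the 181 DMSO members, 74 overlapped a VTP50469 peak, or 40.9% (exact Clopper-Pearson 95% interval 33.6 to 48.4%), against 49.8% of all 613 DMSO peaks. The other 107 were in the DMSO list alone. In the VTP50469 list 22.2% of all peaks touched no DMSO peak, and 39 of these 89 peaks lay inside a protein-coding gene. When the DMSO list was cut to its 400 strongest peaks, the length of the VTP50469 list, 64 members were DMSO-alone and 65 were VTP50469-alone. The VTP50469 list was not cut, so the rise from 39 comes from peaks whose overlapping DMSO peak was removed. Keeping peaks with −log10 q from 10 upward left 53 DMSO-alone and 11 VTP50469-alone members.

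Isolated DMSO peaks inside genes were found again with VTP50469 less often than isolated DMSO peaks between genes. Between genes 98 of 176 peaks overlapped a VTP50469 peak, or 55.7% (48.0 to 63.2%). The share inside genes differed from this by -14.8 percentage points (Newcombe 95% interval -24.7 to -4.43). Weighted over 4 bins of peak strength the difference was -17.7 points (-26.7 to -8.83). Among peaks whose local background, worked out from fold and p, was under 3 times that of the genome, a limit chosen after seeing the data, it was -12.3 points (-22.6 to -1.64). Chained DMSO peaks inside genes, which have a neighbour within 50 kb, overlapped in 85 of 193 cases, or 44.0% (36.9 to 51.4%). Between genes 48 of 63 chained peaks overlapped, or 76.2% (63.8 to 86.0%), so the lower share inside genes was not particular to isolated peaks (difference of -32.1 points among chained peaks, -43.3 to -18.4). The difference of isolated from chained peaks inside genes was -3.16 points, with an interval of -13.0 to 6.82 that includes 0.

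Peaks that were stronger in the DMSO list were found again more often. Strength was taken as −log10 q, the caller's measure of confidence, in 4 bins of equal number over all DMSO peaks. In the weakest bin 7 of 47 members overlapped, or 14.9% (6.20 to 28.3%), against 27.7% of isolated peaks between genes. The next bins gave 34.0% (21.5 to 48.3%) and 43.2% (28.3 to 59.0%), against 56.4% and 63.9% between genes. In the strongest bin 30 of 37 members overlapped, or 81.1% (64.8 to 92.0%), against 35 of 36 between genes, or 97.2% (85.5 to 99.9%). In each of the 4 bins the share inside genes was the lower one, and the interval of the difference left out 0 in the second bin (-40.6 to -1.98 points) and in the strongest (-31.6 to -1.35 points).

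**Figure D1:**
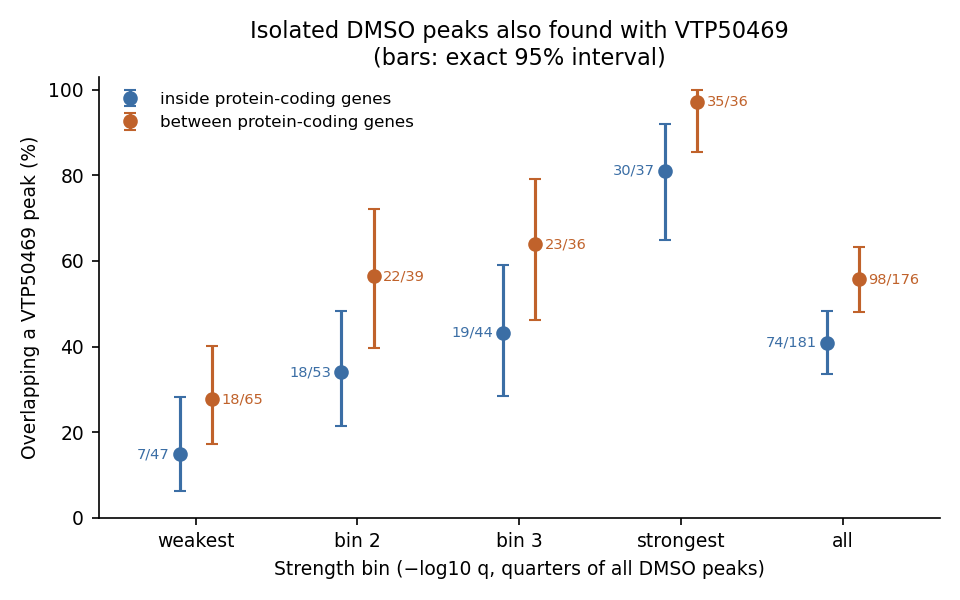
Share of isolated DMSO peaks that overlapped a VTP50469 peak (vertical axis, %), by bin of −log10 q and over all bins, for peaks inside genes (blue) and between genes (orange), with exact 95% intervals and counts. The blue points run from 14.9% to 81.1% and lie below the orange points in every bin.

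Members in both lists were taller than members in 1 list. Their median DMSO fold was 9.22 (range 5.13 to 24.3), against 6.88 (2.901 to 12.4) for the members in the DMSO list alone and 7.64 over all DMSO peaks. In the VTP50469 list the medians were 8.60 (5.09 to 26.3) for the members in both lists, 5.97 (4.03 to 9.58) for those in that list alone and 7.33 over all VTP50469 peaks. The classes overlapped in height, since the highest member of the DMSO list alone stood above the median of the members in both lists. Members in both lists were also wider, with a median DMSO width of 393 bp against 307 bp in the DMSO list alone. The summits of the pair lay a median of 23 bp apart and within 100 bp in 67 of 74 cases. The widest separation was 448 bp, in Hgf, the hepatocyte growth factor gene.

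**Figure D2:**
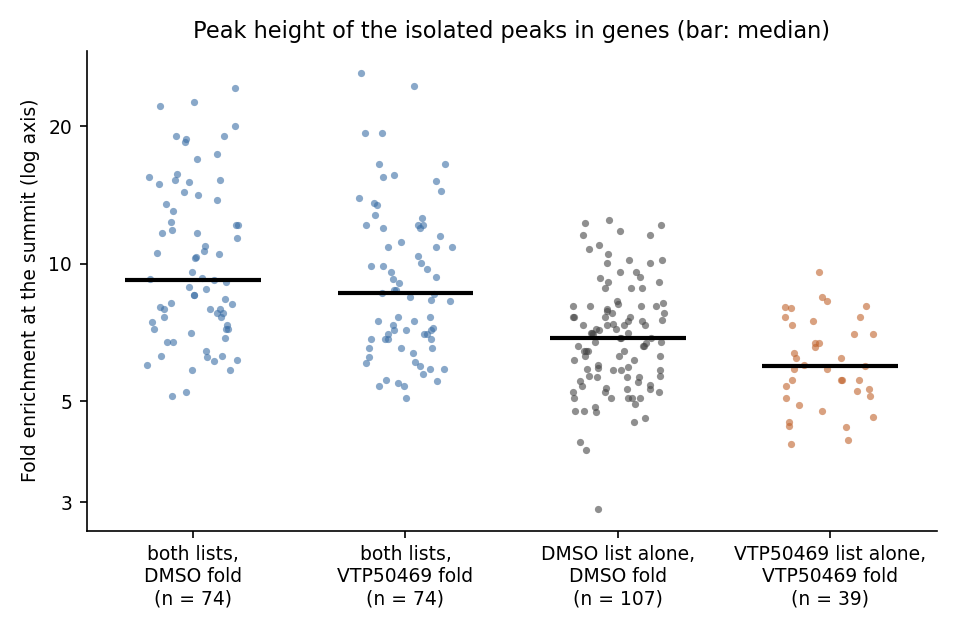
Fold enrichment at the summit (vertical log axis) for each isolated peak in genes, by class and by the list the fold comes from, with medians as bars. Peaks in both lists reach 24.3 with DMSO and 26.3 with VTP50469, while DMSO-alone peaks end at 12.4 and VTP50469-alone peaks at 9.58.

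Some of the tallest members in both lists stood as high with VTP50469 as with DMSO. The top member by −log10 q, at 71.8, lay where the spans of Oprm1, the mu opioid receptor gene, and Ipcef1 overlap (chromosome 10, 6982831 to 6983386). Its folds were 22.7 with DMSO and 24.6 with VTP50469. Stim1 encodes the sensor of the endoplasmic reticulum that opens calcium entry when stores run low. Its peak (chromosome 7, 102336021 to 102336761) had folds of 24.3 and 26.3, the highest of all members in each list. Rptor, which encodes the scaffold subunit of the growth-controlling kinase complex mTORC1, had folds of 18.4 and 19.4 (chromosome 11, 119793113 to 119793446). In all 3 the VTP50469 value was slightly the higher.

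Other tall members stood lower in the VTP50469 list. The tall members were chosen by their DMSO −log10 q, which favours those that stood higher with DMSO. Adk, the adenosine kinase gene, had a DMSO fold of 22.1 and a VTP50469 fold of 12.6 (chromosome 14, 21151988 to 21152432). Scfd2 had 19.1 and 9.35 (chromosome 5, 74456261 to 74456839). Gab2 encodes a docking protein that relays cytokine receptor signals, and held 2 members 52076 bp apart. The first (chromosome 7, 97085324 to 97085715) had folds of 19.04 and 11.98, and the second (97136413 to 97137784) 14.1 and 8.31. Chl1, a neural adhesion gene, had 20.0 and 16.5, and Egln1, the oxygen-sensing prolyl hydroxylase gene, 18.7 and 14.4. Each fold is the authors' own value within its list, and the lists are not scaled to each other.

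Fragment counts rebuilt from the fold and p of each peak put both lists on 1 scale, if both were called against the same control, which no source states. Over all 289 pairs of summits within 200 bp, exact binomial tests with Benjamini-Hochberg adjustment found fewer VTP50469 fragments at 9.69% of pairs and more at 0 of them. At an unadjusted p under 0.05 the figures were 19.7% and 1.38%. Of the 72 members tested, 6 had fewer after adjustment and 12 before it, and 0 had more either way. The share of members called after adjustment was close to that of all pairs. The 6 sites lay in Tcf12, Ncoa1, Adk, Scfd2 and Gab2, which held 2 of them. The one-sided result depends on the scaling. Relative to the median ratio of all pairs, 13 of the 289 had fewer and 6 more after adjustment (35 and 19 before it). Among the members 2 had fewer and 0 more (6 and 3 before it). These tests compare 2 libraries and not the treatments.

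**Figure D3:**
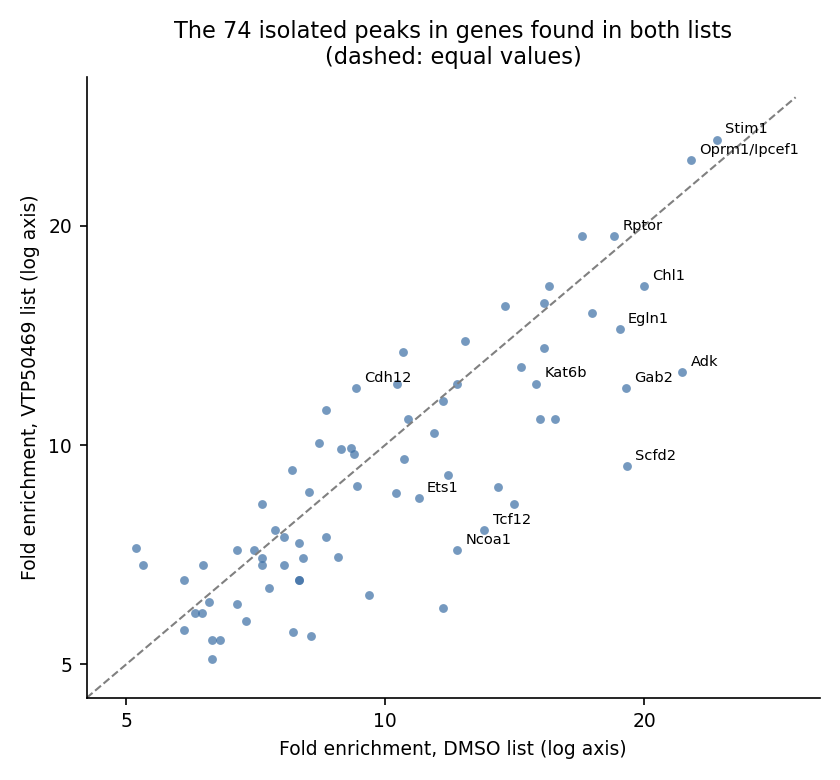
DMSO fold (horizontal log axis) against VTP50469 fold (vertical log axis) for the 74 isolated peaks in genes found in both lists, with the dashed line at equal values. Stim1 and Oprm1 lie near the line at the top, and Adk (22.1 and 12.6) and Scfd2 (19.1 and 9.35) lie below it.

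The strongest members in the DMSO list alone had folds between 9.36 and 12.4. Rab38, a small GTPase gene of lysosome-related organelles, led with a −log10 q of 25.7 and a fold of 11.8 (chromosome 7, 88442758 to 88443558), and the nearest VTP50469 summit was 804837 bp away. Vps13a, a lipid transfer gene, had 12.1 (chromosome 19, 16770268 to 16770789). Zc3h12c and Zc3h6, genes of CCCH zinc finger proteins, had 12.4 and 11.0. Gtdc1 had 12.3, Mpp6 11.5, and Cux1, a homeobox transcription factor gene, 11.5. Those 7 were the members of the strongest bin with no VTP50469 peak. Nr3c1, the glucocorticoid receptor gene, followed with a fold of 9.36 (chromosome 18, 39484054 to 39484453).

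Absence from the VTP50469 list was not a near miss of position. No member of the DMSO list alone had a VTP50469 summit within 1 kb, and the nearest, in the RNA helicase gene Ddx4, was 29711 bp away. The median distance was 1602 kb, and 2 of the 107 had a VTP50469 summit within 50 kb. A peak that is missing from a list fell short of the caller's threshold there, which does not show that the fusion was absent.

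The strongest members in the VTP50469 list alone had folds between 6.01 and 9.58 in that list. Lyst, a gene of lysosomal traffic, had a VTP50469 fold of 9.58 and its nearest DMSO summit was 8037667 bp away. Map4k5, a kinase gene of stress signalling, had 8.05 and a DMSO summit 1109 bp away. Oxr1, an oxidation resistance gene, had 8.00, and the predicted gene 4930467E23Rik 6.01 with a DMSO summit 50767 bp away. Sgcz, a sarcoglycan gene, and Cdh12, a cadherin gene, had 8.29 and 8.45. Over all 39 peaks the median distance to a DMSO summit was 734 kb, and 18 lay more than 1 Mb from any.

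Members lay in 7 genes of a list of blood cell transcription factors, and 5 of these had DMSO-alone members and no other. Over all 181 DMSO members 107 were DMSO-alone, and no difference between the list and the rest was tested. Of 64 such genes 7 held a member, or 10.9%, against 1.01% of all protein-coding genes. The list was written with earlier results of these data known, and the 7 genes are long (97.0 to 597 kb), so the share is not independent evidence. Ets1, which encodes the founding ETS factor, had a peak in both lists, with folds of 10.9 with DMSO and 8.45 with VTP50469. Tcf12, an E-protein gene, had 1 peak in both lists, with folds of 13.0 and 7.65, and a weaker one of 5.69 in the DMSO list alone, 58712 bp from the first. The other 5 genes had peaks in the DMSO list alone. Tcf4, another E-protein gene, had a fold of 7.16 (chromosome 18, 69542752 to 69543080). Foxp1, a forkhead gene, had 2 members with folds of 7.34 and 6.14, 135803 bp apart. Bcl11a, Mef2c and Mecom had 9.29, 8.22 and 5.50, and their summits lay at 23.7%, 15.2% and 89.5% of the span from the 5′ end. The nearest annotated start of the same gene was 18820, 5217 and 3082 bp away, so the Mecom summit lay near a start inside the span. Tcf4 and Mecom were named after their values were seen.

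Members lay in 5 genes of the signalling list. The list is not complete, since Map4k5, Rptor and Hgf, among others, also held members. Of 79 genes of growth factor receptors and signalling 5 held a member, or 6.33%, against 1.01% of all protein-coding genes. Of these 5 genes, 4 had a member in both lists, beside 40.9% of all DMSO members. With 5 genes no difference was tested. Besides Gab2 these were Sos1, the exchange factor that activates RAS, with folds of 10.5 with DMSO and 13.4 with VTP50469 at a summit shared with the overlapping Arhgef33. Angpt1, a ligand gene of vascular and stem cell niches, had 6.89 and 5.73, and the kinase gene Gsk3b, named after its values were seen, 6.14 and 6.85. Nf1, whose product turns RAS off, had a fold of 6.59 in the DMSO list alone.

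Members lay in 4 genes of the chromatin lists. The lists are not complete, since Cdyl, Baz1a and Baz2b also held members. Of 26 genes of MLL, menin and related acetyltransferase complexes 1 held a member, or 3.85%, against 1.01% of all protein-coding genes. That gene, Kat6b, held 2. Its taller peak was in both lists, with folds of 15.0 and 12.1, and a peak 2036 bp away was in the VTP50469 list alone with a fold of 4.498. Of 81 other chromatin regulators 3 held a member, or 3.70%. Chd7, a remodelling enzyme gene, had folds of 7.79 with DMSO and 9.25 with VTP50469, and the deacetylase gene Hdac9 6.01 and 5.89. Ezh2, the Polycomb methyltransferase gene, had a fold of 6.74 in the DMSO list alone, 2844 bp inside the nearer end of its span.

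Long adhesion genes carried sites of all 3 classes. Of 81 cadherin, protocadherin and other long neuronal adhesion genes 9 held a member, or 11.1%, against 1.01% of all protein-coding genes. Long genes offer more room, so this share is not independent evidence. Of the 9 genes, 3 had a member in both lists, 4 a DMSO-alone one and 5 a VTP50469-alone one. The list is not complete, since the neural adhesion genes Chl1 and Ncam2, among others, also held members. Each had a peak in both lists, and Ncam2 a VTP50469-alone one as well. The list also counts Sgcz, a sarcoglycan gene. Over all 220 members 74 were in both lists, 107 DMSO-alone and 39 VTP50469-alone, and no difference was tested. Pcdh7 had a DMSO-alone peak of fold 10.8 close to its 5′ end and a peak in both lists, with folds of 7.64 and 6.85, that lay 262509 bp further on. Cdh12 had a peak in both lists, with folds of 9.25 and 11.97, and its VTP50469-alone peak lay 150352 bp away. Sgcz had a DMSO-alone peak of fold 6.29 and a VTP50469-alone peak of fold 8.29, 924579 bp apart. Ptprd, a receptor phosphatase gene with the longest span of those with a member (2271 kb), had 7.94 and 6.53.

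The other lists are set beside the same 1.01% of all protein-coding genes. Their shares take no account of gene length. Of the genes with a member 59.9% exceeded 100 kb, against 11.1% of all protein-coding genes. Of 30 traffic and lysosome genes 3 held a member, or 10.0%, namely Rab38, Vps13a and Lyst. The traffic list is not complete, since Vps45 and Exoc2 in both lists, and Vps54 and Exoc6 in the DMSO list alone, also held members. Rab38 and Lyst led their classes and the list was written with earlier results known, so the share is not independent evidence. Of 31 genes of cell cycle and survival 1 held a member, or 3.23%. That was Rb1, the retinoblastoma gene, with a DMSO-alone fold of 5.08 at a summit that also lay in Lpar6. Of 46 genes of RNA binding 1 did, or 2.17%, and Tut4, a terminal uridylyltransferase gene, had a DMSO-alone fold of 10.5, 2616 bp inside its 5′ end. The RNA list is not complete, since the RNA helicase gene Ddx4 and the splicing gene Prpf39, among others, also held members. None of 48 HOX and HOX cofactor genes, 25 myeloid, 20 lymphoid and 16 erythroid and megakaryocyte markers held an isolated member in its span. The rule leaves out DMSO peaks with a neighbour within 50 kb, so this does not show that the fusion was absent from these genes. In all, 30 of the 545 listed genes that were found held a member.

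Most genes held a single site. There were 208 genes with 1 member and 14 with more, and 210 of the 220 summits lay in the span of 1 protein-coding gene. Of the 14 genes, 7 had a VTP50469-alone member, 4 had a mix of both lists and DMSO alone, 2 (Gab2 and the chromodomain gene Cdyl) had members in both lists alone, and Foxp1 had DMSO-alone members. Cdyl had folds of 10.3 and 12.1 at its first site and 9.14 and 9.90 at its second. Ascc3, a helicase gene, had a peak in both lists with folds of 8.82 and 7.01 and a DMSO-alone peak of 6.88. Ncam2, a neural adhesion gene, and Malrd1 each had a peak in both lists (8.04 and 7.00, and 7.94 and 7.33) and a VTP50469-alone peak (4.90 and 4.62). Ddx4 had a DMSO-alone peak of fold 10.0 and a VTP50469-alone peak of 5.97. Chained DMSO peaks lay in 7 of the 222 genes as well, among them Tut4, Pcdh7, Foxp1 and Adk.

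Several members lay in duplicated zinc finger genes on chromosome 4, where reads cannot be assigned with certainty. This stretch held 7 members, 2 in both lists, 3 DMSO-alone and 2 VTP50469-alone. The peak shared by Zfp981 and Zfp993 (146538681 to 146539503) had folds of 9.57 and 6.23, and the one shared by Zfp993 and Rex2 (146991386 to 146991642) 7.44 and 7.66. Another Zfp993 peak had a DMSO-alone fold of 7.50, and Zfp978 had 5.41. Zfp600 had a DMSO-alone fold of 2.901, where the rebuilt local background was 7.61 times that of the genome, and a VTP50469-alone fold of 4.38. Without this stretch 40.9% of the 176 remaining DMSO members were in both lists.

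Most sites lay more than 5 kb from either end of a span, in genes that were often long. The median length of the 222 genes was 129 kb, against 17.2 kb over all protein-coding genes, but long genes offer more room. If every base of every gene counted equally, the median would be 138 kb. Of the 220 summits 16 lay within 2 kb of either end of a span, or 7.27% (4.21 to 11.5%), with 9 within 1 kb and 38 within 5 kb. Those with the highest −log10 q were in Krr1 and Glipr1 (overlapping), Zfp981 and Zfp993, the acyl-CoA dehydrogenase gene Acadsb, Wfdc17, Zfp993 and Rex2, and the splicing gene Prpf39. All 6 were in both lists.

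Members in the DMSO list alone lay toward the 5′ end of their genes. Strand and starts were given for 181 of the 220 members, and the median distance to the nearest start was 26.6 kb. The summit lay in the first 25% of the span, from the 5′ end, in 45 of 93 members of the DMSO list alone, or 48.4% (37.9 to 59.0%). This was so in 18 of 57 members in both lists, or 31.6% (19.9 to 45.2%), and in 6 of 31 of the VTP50469 list alone, or 19.4% (7.45 to 37.5%). An even spread along the span would give 25%. The share in the DMSO list alone was higher by 16.8 points than in both lists (Newcombe 95% interval 0.553 to 31.4), and by 29.0 points than in the VTP50469 list alone (9.43 to 43.3). In spans over 100 kb, chosen after seeing the data, the differences were 27.9 points (7.66 to 44.7) and 36.7 points (12.4 to 52.8). Chained DMSO-alone peaks inside genes gave 38 of 88, or 43.2% (32.7 to 54.2%), and chained peaks in both lists 25 of 70, or 35.7% (24.6 to 48.1%). The isolated DMSO-alone share differed from the chained one by 5.21 points, with an interval of -9.16 to 19.3 that includes 0.

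**Figure D4:**
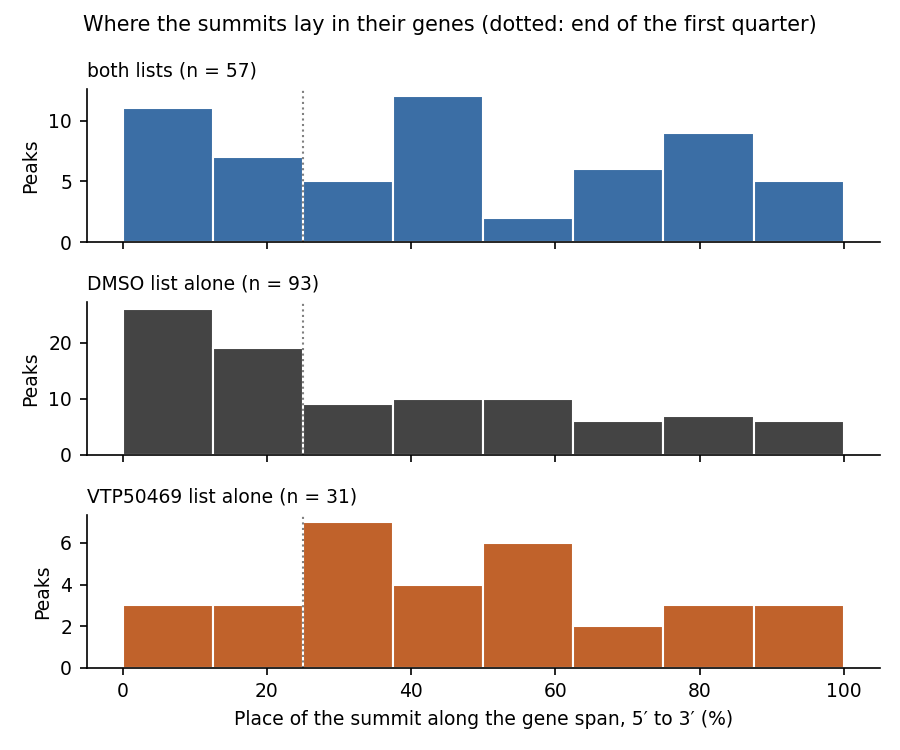
Place of the summit along the gene span from the 5′ to the 3′ end (horizontal axis, %) against number of peaks, for the members whose gene has a strand in the reference, by class. In the DMSO list alone 45 of 93 summits lie left of the dotted line at the end of the first 25%, beside 18 of 57 in both lists and 6 of 31 in the VTP50469 list alone.

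At the edge of the isolation rule, the nearest members above 50 kb were the Zfp981 and Zfp993 pair of summits, 50534 bp apart, with DMSO folds of 9.57 and 7.50. The nearest peaks inside genes below it were 2 in Tex14, 49072 bp apart, with folds of 9.59 and 5.43.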

How the data were processed

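One peak list was deposited for the DMSO pull-down and another for the VTP50469 pull-down of the biotinylated fusion, so peaks were called per library. Per the submitters' processing notes, the build was mm10 and the tools were MACS2, bedtools, SAMtools 1.95, Picard 2.9.4, STAR 2.7.5a and bcl2fastq 2.20.0.422. Of their settings, the threshold and the control, nothing is given in the sources used here. Deposited values per peak were the fold enrichment (a ratio to background) and, both as −log10, the p-value and the q-value (at least 2.10 with DMSO and 2.02 with VTP50469). The deposited score repeats the last and was not used. Depth is unknown, since the lists hold no read totals.

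Summits, overlaps and gene spans (RefSeq GRCm38.p6) were computed with Python 3.11.15, numpy 2.4.6, pandas 2.3.3, scipy 1.17.1, statsmodels 0.14.6 and matplotlib 3.10.9. Strand and starts came from the RefSeq promoter table, which holds 17492 of the protein-coding genes. Shares have exact Clopper-Pearson 95% intervals, which treat peaks as independent, and differences have Newcombe intervals. The rule for members, the 12 gene lists (548 genes, 545 found) and the named genes were chosen with earlier results of these data known. Named genes were those of the 8 strongest members in both lists, the 8 in the DMSO list alone and the 6 in the VTP50469 list alone, up to 4 per list, all with 2 or more members, 6 near gene ends and those nearest the 50 kb limit. Fragment counts were rebuilt from fold and p-value under a Poisson model with a pseudocount of 1. The class rule and the rebuilding were tested on simulated peaks. Those for the rebuilding were made with the same model, which checks the arithmetic and not whether the deposited values follow it. Alternatives covered the gap, strength, list length, overlap rule and gene spans.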

Additional observations from a re-analysis of the deposited data

How the results depend on the processing

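Among 76 values recomputed, 65 stayed near the reported ones and 11 moved. Only the difference from isolated peaks between genes was checked for direction, and 0 of its values turned. With −log10 q from 10 upward 53 members were DMSO-alone, 11 were VTP50469-alone and 50% of DMSO members overlapped. At equal list length, reached by cutting the DMSO list alone, the numbers were 64, 65 and 51.9%. DMSO-alone members then no longer outnumbered VTP50469-alone ones, and the cut itself adds to the VTP50469-alone count. The difference from peaks between genes was -24.8 points there. The cause of this larger difference was not tested. Overlap of 50% in both directions gave 59 VTP50469-alone members, by its stricter construction. Gene ends within 1 kb and 5 kb gave 9 and 38 summits. Centred on the median ratio of all matched summits, 2 members in place of 6 had fewer VTP50469 fragments. The share overlapping ranged from 38.1% to 42.6% over the gap, fold, overlap and gene span settings. Limits on background, on the chromosome 4 stretch and on span length were chosen after seeing the data.

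No paired analysis was possible because the design has 1 library for DMSO and 1 for VTP50469. Motifs at the summits themselves were not run, as no genome sequence was used here. Single weak peaks near the calling threshold are the least certain.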

Other observations

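On the rebuilt fragment counts, and with the same assumption of 1 shared control, the VTP50469 library was 5.50% less deep. Among the 72 members tested the depth-scaled count with VTP50469 was a median of 0.904 times that with DMSO (interquartile range 0.784 to 1.06), the same as the 0.904 over all 289 pairs, and beside 0.991 over 91 isolated pairs between genes. Of those 91 pairs 0 had fewer or more VTP50469 fragments after adjustment (exact binomial tests), and 6 had fewer and 4 more at an unadjusted p under 0.05. Whether members differ from the pairs between genes was not tested.

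Tcf12, the E-protein gene, had 84 DMSO and 45 VTP50469 fragments, a ratio of 0.567 (95% interval 0.386 to 0.824, exact binomial adjusted p = 0.0254). Ncoa1, a nuclear receptor coactivator gene, had 78 and 42, a ratio of 0.570 (0.382 to 0.840). Adk had 165 and 92, a ratio of 0.590 (0.452 to 0.766), and Scfd2 162 and 99, a ratio of 0.647 (0.498 to 0.836). Both Gab2 sites were among them, with 144 and 78 fragments (0.573, 0.429 to 0.760) and 124 and 72 (0.614, 0.453 to 0.828). Stim1 had 159 and 161 fragments (1.07, 0.855 to 1.34) and the site of Oprm1 and Ipcef1 193 and 198 (1.09, 0.886 to 1.33).

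The X chromosome held 2 of the 220 members, in Diaph2 and at Cysltr1 with Gm5127, or 0.909%, while it holds 4.42% of the bases in protein-coding spans. Of all 613 DMSO peaks 1.63% lay on X. Counts by chromosome were highest on chromosome 5, with 21 members, and chromosome 4, with 18.

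Paralogous genes named after their values were seen also held members. Such pairs were not counted over all genes, and others held members too, such as Foxp1 and Foxp2. Stim2 had a DMSO-alone fold of 10.2 beside the tall Stim1 site in both lists. The catalytic calcineurin genes Ppp3ca and Ppp3cb had DMSO-alone folds of 7.19 and 7.86, and the remodelling genes Baz1a and Baz2b 7.64 and 10.0.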
